A study of Mus musculus with 8 samples.

Results

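The interferon-stimulated genes and interferon signalling genes described here are 48 genes of 43472 gene symbols listed in the count files. They were taken as a list of symbols, drawn up with earlier results of these data known, and comprise 4 receptor chains, 6 transcription factors, 5 nucleic acid sensors and regulators of sensors, 13 antiviral effectors, 7 interferon-inducible GTPases, 6 genes of ISG15, ubiquitin and ADP-ribosylation, and 7 other induced genes. RNA of the neural retina was sequenced from 8 mice aged 3 weeks (postnatal day 21), 4 control and 4 Mfp2-/-, to ask what the loss of MFP2, an enzyme of peroxisomal β-oxidation, changes in the retina. The controls were 3 Mfp2+/+ mice and 1 Mfp2+/- mouse, which is control replicate 2. All mice were on a C57BL/6J background and carried no other allele or treatment named in the labels. The Mfp2-/- mice came from matings of heterozygous parents and lack the gene in every tissue, so that the retina is not the only organ affected. Both retinas of a mouse were pooled into 1 library, and the libraries read the 3′ ends of transcripts (QuantSeq).

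Interferons are secreted cytokines that cells release after sensing foreign or misplaced nucleic acids or other danger signals. Type I interferons bind a receptor made of IFNAR1 and IFNAR2, and interferon gamma binds one made of IFNGR1 and IFNGR2. Both receptors act through Janus kinases and STAT proteins, which enter the nucleus, alone or with IRF9, and switch on interferon-stimulated genes by binding to short promoter motifs. In the retina, as in the brain, microglia are known as a main source of and responder to such signals, and glia, endothelium and neurons can respond as well.

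Hsd17b4, the gene that encodes MFP2, was counted 47, 20, 78 and 37 times in the control libraries and 1, 0, 1 and 0 times in the Mfp2-/- libraries. No library went against its label, although a count per gene does not tell whether reads come from the deleted stretch. Control libraries held 2340974 to 3226187 counts in genes and Mfp2-/- libraries 1895485 to 2826553. Mfp2-/- replicates 2 and 3 stood apart in the share of reads outside annotated genes, at 10.8% and 15.7% against 22.6% to 29.9% in the other 6 libraries. Summed markers of rods were at 35230 to 38380 CPM, which is counts scaled to library size with TMM factors, in control retinas and 1696 to 2275 CPM in Mfp2-/- retinas. In bulk tissue, fewer cells of a type and less RNA per cell cannot be told apart.

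Of the 48 interferon genes, 34 had enough counts to be tested, 24 were upregulated in Mfp2-/- retinas, 0 were downregulated and 10 did not pass an adjusted p of 0.05 in edgeR's quasi-likelihood test. Log2 fold changes of single genes are given ± their standard error from this fit. Over all 12516 genes tested, 13.8% were upregulated and 13.2% downregulated. At an unadjusted p under 0.05 edgeR found 0 members lower in Mfp2-/- retinas, and DESeq2 and limma-voom called 0 downward. Among the 34 members tested the median log2 fold change was 1.32, against a median close to 0 over all genes tested (-0.0039), and single members ranged from -0.44 (Ifngr1) to 3.35 (Gbp2). In 24 of the 34, all 4 Mfp2-/- libraries were above all 4 controls, an arrangement found in 15.1% of all genes tested.

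Many of these genes had few counts in control retinas, and a gene that is scarce in controls could enter the test only by being higher in Mfp2-/- retinas. Irf5, Bst2, Gbp2, Igtp and Isg15 were below the count floor of the filter (3.544 CPM before TMM scaling) in every control library, and 11 more of the upregulated genes were below it in at least 1 control. The counts of genes tested and called are therefore not independent of the filter. Of the 15 members that were past the floor in all 4 controls, 8 were upregulated, 0 downregulated and 7 not called. Among all genes past the floor in all 4 controls, 12.3% were upregulated and 14.8% downregulated. Without any filter 30 of all 48 members passed upward and 0 downward, the 6 additional genes being Cxcl10, Dhx58, Eif2ak2, Ifitm1, Irgm1 and Usp18. Over the 22095 genes with at least 1 count, 7.69% passed upward and 8.12% downward without the filter.

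**Figure D1:**
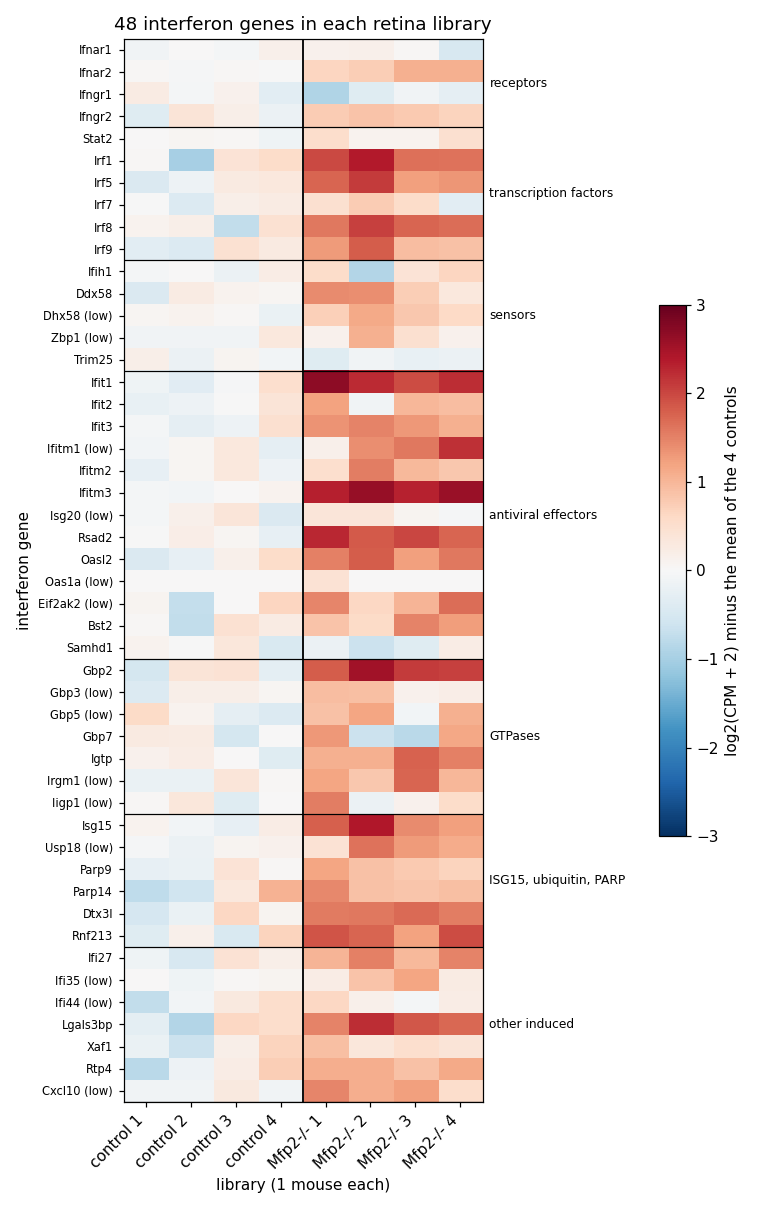
Heat map of the 48 interferon genes (rows, grouped by role) in the 8 libraries (columns), coloured by log2(CPM + 2) minus the mean of the 4 controls, with genes too low for the test marked as low. The Mfp2-/- columns are mostly red from the transcription factors down, with paler or blue cells at Ifnar1, Ifngr1, Trim25 and Samhd1 and a split between Mfp2-/- libraries at Gbp7.

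Promoters of interferon-stimulated genes often hold an ISRE, bound by STAT and IRF9 complexes and by IRFs, or a GAS element, bound by STAT dimers. RefSeq promoters of GRCm38.p6, from 250 bases before to 50 bases after a transcription start, were at hand for 40 of the 48 members. Letters GAAANNGAAA on either strand, the core of an ISRE, were present in the promoters of 19 of these 40 members, and in 3.44% of all 32851 promoters of the table. Counted per promoter, 40.4% of the 47 members' promoters held them. Letters TTCNNNGAA, the core of a GAS element, were present for 15 of the 40 members. Per promoter this was 31.9% of the 47 members' promoters and 8.3% of all promoters. The ISRE letters were held by 10 of the 21 upregulated members with a promoter, 3 of the 9 not called and 6 of the 10 not tested. A match is a description of the letters and not a bound site.

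The 7 upregulated members with the largest fold changes among those that hold either motif are printed below, 5′ to 3′ on the strand of the gene, so that the place and orientation of the motifs can be seen. Capitals mark the ISRE-like or GAS-like letters, which appear as TTTC repeats where the match is on the other strand. They lie at chr3:142620413-142620712 (Gbp2, plus strand), chr19:34640639-34640938 (Ifit1, plus), chr4:156200769-156201068 (Isg15, minus), chr7:141010695-141010994 (Ifitm3, minus), chr12:26456403-26456702 (Rsad2, minus), chr8:120736108-120736407 (Irf8, plus) and chr11:53769764-53770063 (Irf1, plus).
Gbp2: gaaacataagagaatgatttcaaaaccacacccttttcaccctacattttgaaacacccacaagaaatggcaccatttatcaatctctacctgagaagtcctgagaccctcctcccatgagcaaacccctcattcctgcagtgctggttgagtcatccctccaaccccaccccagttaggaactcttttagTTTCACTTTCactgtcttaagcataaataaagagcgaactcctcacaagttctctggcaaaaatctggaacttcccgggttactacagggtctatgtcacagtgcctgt
Ifit1: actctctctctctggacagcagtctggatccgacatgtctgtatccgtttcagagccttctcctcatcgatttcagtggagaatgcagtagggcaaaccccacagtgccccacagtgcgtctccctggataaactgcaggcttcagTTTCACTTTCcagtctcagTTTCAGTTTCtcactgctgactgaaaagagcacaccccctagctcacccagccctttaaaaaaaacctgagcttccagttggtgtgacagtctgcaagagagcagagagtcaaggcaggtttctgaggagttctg
Isg15: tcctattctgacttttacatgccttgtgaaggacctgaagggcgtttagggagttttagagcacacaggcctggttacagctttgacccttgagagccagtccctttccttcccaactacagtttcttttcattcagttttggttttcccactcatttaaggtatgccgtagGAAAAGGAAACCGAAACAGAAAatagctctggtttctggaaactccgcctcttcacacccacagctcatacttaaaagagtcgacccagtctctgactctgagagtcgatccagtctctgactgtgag
Ifitm3: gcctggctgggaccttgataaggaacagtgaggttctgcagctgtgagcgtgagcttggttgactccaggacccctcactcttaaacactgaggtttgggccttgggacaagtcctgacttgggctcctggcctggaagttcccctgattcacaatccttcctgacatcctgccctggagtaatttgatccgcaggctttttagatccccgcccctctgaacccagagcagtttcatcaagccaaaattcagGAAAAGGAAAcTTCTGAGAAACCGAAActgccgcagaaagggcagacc
Rsad2: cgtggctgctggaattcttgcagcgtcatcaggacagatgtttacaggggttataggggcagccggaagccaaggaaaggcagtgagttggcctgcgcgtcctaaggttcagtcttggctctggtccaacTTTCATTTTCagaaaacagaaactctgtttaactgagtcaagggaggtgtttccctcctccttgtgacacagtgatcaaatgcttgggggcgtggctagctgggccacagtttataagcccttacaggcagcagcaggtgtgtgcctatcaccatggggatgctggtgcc
Irf8: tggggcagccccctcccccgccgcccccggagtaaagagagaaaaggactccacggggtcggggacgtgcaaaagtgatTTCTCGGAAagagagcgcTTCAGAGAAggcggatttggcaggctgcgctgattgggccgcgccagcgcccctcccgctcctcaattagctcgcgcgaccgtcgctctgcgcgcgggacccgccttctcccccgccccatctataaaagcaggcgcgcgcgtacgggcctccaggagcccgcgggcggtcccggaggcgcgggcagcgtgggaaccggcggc
Irf1: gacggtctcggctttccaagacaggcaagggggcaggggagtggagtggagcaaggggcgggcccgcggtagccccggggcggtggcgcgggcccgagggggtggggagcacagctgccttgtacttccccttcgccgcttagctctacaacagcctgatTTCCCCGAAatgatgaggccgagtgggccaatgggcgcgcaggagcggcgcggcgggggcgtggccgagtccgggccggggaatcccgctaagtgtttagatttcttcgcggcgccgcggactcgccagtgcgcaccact
Gbp2 has a single ISRE-like core that begins 59 bases before the start. Ifit1 has a pair of separate ones at -104 and -85, and Isg15 has 3 that overlap in a row from -78 to -57. In Ifitm3 both ISRE-like cores lie just after the start, at 2 and 19, with a GAS-like match that overlaps the latter of them at 13. Irf8 and Irf1 hold GAS-like letters alone, Irf8 at -171 and -153 and Irf1 at -90. A second listed promoter of Irf8 and of Irf1 held neither motif.

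**Figure D2:**
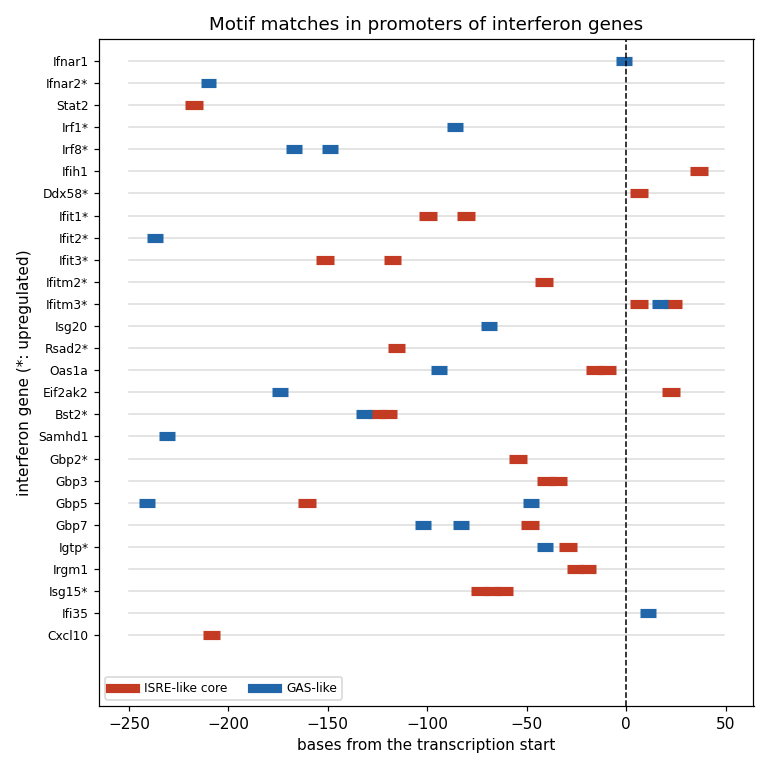
Positions of ISRE-like cores (red) and GAS-like letters (blue) in RefSeq promoters of the interferon genes that hold at least 1 of them, in bases from the transcription start (dashed line), with upregulated genes starred. Most red bars lie within the 150 bases before the start, as at -59 in Gbp2, and those of Ifitm3, Ddx58, Ifih1 and Eif2ak2 lie after it.

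Among the 4 receptor chains, one chain of each receptor was upregulated in Mfp2-/- retinas and its partner was not. Ifnar2, the high-affinity chain of the type I receptor (chromosome 16, 91372783 to 91405589 of GRCm38), was at 5.82, 5.43, 5.81 and 5.57 CPM in control replicates 1 to 4 and at 9.91, 10.7, 14.1 and 13.97 CPM in Mfp2-/- replicates 1 to 4. The controls were nearly level and every Mfp2-/- library lay above them. This was a 2.15-fold increase (log2 fold change 1.10 ± 0.23, adjusted p = 0.00513). Ifnar1, the other type I chain, which lies on the same chromosome 79648 bases away, was at 21.8, 24.0, 22.9 and 26.5 CPM in controls and 26.2, 26.4, 24.2 and 16.5 CPM in Mfp2-/- retinas. The groups overlapped, and the log2 fold change was -0.03 ± 0.18 (adjusted p = 0.914), a value whose sign turned with upper-quartile or total-count scaling (0.09 with each).

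Ifngr2, the signalling chain of the interferon gamma receptor, was at 10.2, 18.5, 15.8 and 11.8 CPM in controls and at 24.8, 26.4, 25.2 and 23.2 CPM in Mfp2-/- retinas. All Mfp2-/- libraries were above all controls, a 1.77-fold increase (log2 fold change 0.82 ± 0.20, adjusted p = 0.0126). Ifngr1, its ligand-binding partner, was at 33.1, 26.2, 30.3 and 21.6 CPM in controls and 13.8, 20.8, 25.2 and 22.4 CPM in Mfp2-/- retinas. The 3 highest libraries were controls and the 2 lowest were Mfp2-/-, while control replicate 4 lay among the Mfp2-/- values, so the groups overlapped. Ifngr1 did not pass, with a log2 fold change of -0.44 ± 0.21 (adjusted p = 0.153). A direct test between the chains of a receptor was not made.

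Of the 6 transcription factors, 4 were upregulated and all 4 calls held when any 1 library was left out. Irf1, induced early by interferon gamma and other cytokines, was at 7.64, 2.71, 10.6 and 11.8 CPM in controls and 35.0, 47.3, 27.9 and 27.2 CPM in Mfp2-/- retinas. The lowest Mfp2-/- library was well above the highest control. The increase was 4.04-fold (log2 fold change 2.01 ± 0.34, adjusted p = 0.00149). Irf8, a factor on which microglia depend, was at 5.10, 5.43, 1.94 and 6.97 CPM in controls and 17.7, 25.4, 20.2 and 19.1 CPM in Mfp2-/- retinas. Again the groups were far apart, with a 4.24-fold increase (log2 fold change 2.08 ± 0.31, adjusted p = 0.00076).

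Irf5, a mediator of inflammatory cytokine expression in myeloid cells, had 0, 1, 4 and 4 counts in controls and 20, 19, 13 and 13 in Mfp2-/- retinas. It was scarce in controls and above them in every Mfp2-/- library (log2 fold change 2.89 ± 0.56, adjusted p = 0.0037), and 14.1% of its exon bases overlap Tnpo3 on the other strand. Irf9, the DNA-binding partner of STAT proteins in type I responses, was at 18.6, 17.2, 32.9 and 28.6 CPM in controls and 59.5, 88.4, 46.1 and 44.5 CPM in Mfp2-/- retinas. Irf9 thus varied within both groups, which were nevertheless separate, and the increase was 2.41-fold (log2 fold change 1.27 ± 0.27, adjusted p = 0.00613).

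Stat2, the partner of IRF9, was at 22.9, 23.5, 23.2 and 20.6 CPM in controls and 33.3, 24.4, 24.5 and 32.0 CPM in Mfp2-/- retinas. All Mfp2-/- libraries exceeded the controls, replicates 2 and 3 by a small margin, and the gene did not pass (log2 fold change 0.34 ± 0.16, adjusted p = 0.136). Its adjusted p was 0.0463 with upper-quartile factors, 0.048 with total counts and 0.0404 without Mfp2-/- replicates 2 and 3. Irf7, the factor that amplifies type I interferon expression, was at 5.46, 3.62, 6.45 and 6.97 CPM in controls and 8.49, 10.7, 9.08 and 4.04 CPM in Mfp2-/- retinas. The Mfp2-/- replicate 4 lay among the controls while the other 3 were above them, and Irf7 did not pass (log2 fold change 0.49 ± 0.34, adjusted p = 0.306).

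**Figure D3:**
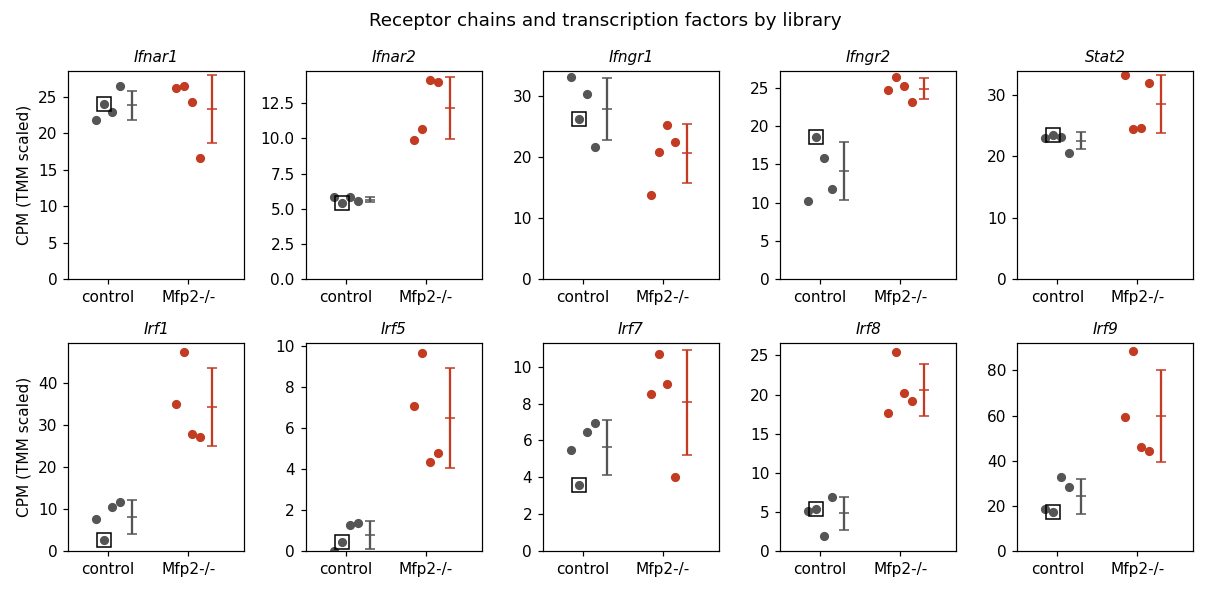
CPM of the 4 receptor chains and 6 transcription factors in each library (points, in replicate order) with the mean and SD beside them (horizontal mark and bar, n = 4 mice per group), each panel on its own scale from 0, and the Mfp2+/- control in a square. Ifnar2, Ifngr2, Irf1, Irf5, Irf8 and Irf9 show Mfp2-/- libraries all above the controls, Stat2 by a narrow margin, while Ifnar1, Ifngr1 and Irf7 overlap.

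Of the 5 sensors and regulators of sensors, 3 were tested and 1 was upregulated. Ddx58, which encodes the RNA sensor RIG-I, was at 2.91, 5.88, 5.16 and 4.88 CPM in controls and 15.6, 15.2, 9.08 and 6.25 CPM in Mfp2-/- retinas. The Mfp2-/- libraries were all above the controls but spread widely, replicate 4 lying close to control replicate 2. The log2 fold change was 1.28 ± 0.35 (adjusted p = 0.0221), and the adjusted p was 0.0616, 0.0523 and 0.0563 without control replicate 1, control replicate 4 or Mfp2-/- replicate 1. Ifih1, encoding the RNA sensor MDA5, had 14, 12, 14 and 19 counts in controls and 25, 4, 23 and 26 in Mfp2-/- retinas. In 3 of the 4 Mfp2-/- libraries it was above the controls and in replicate 2 it was below them (log2 fold change 0.42 ± 0.38, adjusted p = 0.448). Trim25, the ubiquitin ligase that activates RIG-I, overlapped between groups, at 16.3 to 21.5 CPM in controls and 14.2 to 17.3 CPM in Mfp2-/- retinas (log2 fold change -0.25 ± 0.17, adjusted p = 0.291).

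The remaining sensors were near the limit of the depth. Dhx58, encoding LGP2, had 1, 1, 1 and 0 counts in controls and 5, 6, 6 and 4 in Mfp2-/- retinas. Every Mfp2-/- library held more than any control, and the ratio of summed counts scaled to library size was 7.29, with 2.18 to 38.2 as the exact 95% interval, which takes in counting error alone. Zbp1, a sensor of left-handed nucleic acids, had counts in a single control library (2 in replicate 4) and 1, 5, 3 and 1 counts in Mfp2-/- retinas. Its ratio was 5.21 (95% exact interval 1.11 to 48.9), and the groups overlapped.

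Of the 13 antiviral effectors, 9 were tested and 8 were upregulated, against 13.8% of all genes tested. Of the 8, Ifit1, Ifitm2, Rsad2, Oasl2 and Bst2 were below the count floor of the filter in at least 1 control. The count is therefore not independent of the filter. Ifitm3, which blocks fusion of viruses with endosomes (chromosome 7, 141009586 to 141010770), was at 17.5, 17.2, 18.4 and 19.9 CPM in controls and 99.8, 121, 98.8 and 120 CPM in Mfp2-/- retinas. Both groups were tight and wide apart, with a 6.01-fold increase and the smallest adjusted p of the 34 members tested (log2 fold change 2.59 ± 0.14, adjusted p = 3.67e-07). Ifit1, which binds viral RNA that lacks host cap methylation (chromosome 19, 34640871 to 34650009), was at 2.91, 2.26, 3.23 and 5.57 CPM in controls and 32.6, 23.4, 18.8 and 22.8 CPM in Mfp2-/- retinas. Its lowest Mfp2-/- library was far above the highest control. The increase was 6.81-fold (log2 fold change 2.77 ± 0.29, adjusted p = 6.42e-05).

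Rsad2, which encodes viperin, an enzyme that makes a chain-terminating nucleotide, was at 3.64, 4.52, 3.87 and 2.79 CPM in controls and 25.1, 18.3, 20.8 and 16.9 CPM in Mfp2-/- retinas. The groups did not overlap and the increase was 5.48-fold (log2 fold change 2.45 ± 0.24, adjusted p = 3.55e-05). Ifit3, a partner of Ifit1 in the same chromosome 19 cluster, was at 9.83, 8.14, 9.03 and 14.98 CPM in controls and 29.4, 32.5, 28.2 and 23.5 CPM in Mfp2-/- retinas. All Mfp2-/- values were above all controls (log2 fold change 1.42 ± 0.22, adjusted p = 0.000812). Oasl2, of the oligoadenylate synthetase-like family, was at 2.55 to 6.97 CPM in controls and 12.4 to 19.8 CPM in Mfp2-/- retinas, without overlap (log2 fold change 1.84 ± 0.31, adjusted p = 0.00161).

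The calls of the other 3 upregulated effectors depended on single libraries. Ifit2 had 14, 12, 19 and 25 counts in controls and 48, 11, 43 and 37 in Mfp2-/- retinas. Mfp2-/- replicate 2 was as low as the controls, unlike for Ifit1 and Ifit3, its neighbours on chromosome 19. The log2 fold change of Ifit2 was 1.01 ± 0.33 (adjusted p = 0.0463). Its adjusted p ran from 0.0717 to 0.115 when control replicate 1, 2 or 3 or Mfp2-/- replicate 1, 3 or 4 was left out. It was 0.0723 with limma-voom. Without both Mfp2-/- replicates 2 and 3 the log2 fold change was 1.25 (adjusted p = 0.00692). Ifitm2 was at 2.18 to 4.19 CPM in controls and 4.95 to 12.2 CPM in Mfp2-/- retinas (log2 fold change 1.35 ± 0.36, adjusted p = 0.0192). Its adjusted p was 0.0567 and 0.0585 without control replicate 1 or 4 and 0.134 without Mfp2-/- replicates 2 and 3. Of the exon bases of Ifitm2, 40.9% are shared with Gm45717 on the same strand, which may affect its counts. Bst2, which encodes tetherin, a protein that holds budding virions at the cell surface, was at 0.452 to 3.55 CPM in controls and 4.07 to 9.41 CPM in Mfp2-/- retinas. It had a log2 fold change of 1.51 ± 0.45 (adjusted p = 0.03), and the adjusted p ran from 0.0565 to 0.0981 when leaving out control replicate 1, 2 or 4 or else replicate 3 or 4 of Mfp2-/-.

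Samhd1, a nuclease that lowers the supply of deoxynucleotides, was at 35.7, 32.6, 42.3 and 23.3 CPM in controls and 28.7, 20.3, 25.2 and 38.2 CPM in Mfp2-/- retinas. The ranges of the groups largely coincided (log2 fold change -0.24 ± 0.23, adjusted p = 0.451). Of the 4 effectors too low for the test, Ifitm1 had 4, 4, 8 and 3 counts in controls and 6, 15, 27 and 40 in Mfp2-/- retinas. Mfp2-/- replicate 1 was within the range of the controls and the other 3 were above it. Eif2ak2, encoding the kinase PKR, had 17 counts in controls and 63 in Mfp2-/- retinas, and Isg20, an exonuclease gene, 35 and 40. Oas1a, an oligoadenylate synthetase gene, had 2 counts in all, both in Mfp2-/- replicate 1.

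The interferon-inducible GTPases attack the membranes around intracellular pathogens, and 2 of the 3 tested among 7 were upregulated. Gbp2, a guanylate binding protein gene (chromosome 3, 142620602 to 142638008), had 0, 4, 6 and 1 counts in controls and 23, 29, 31 and 27 in Mfp2-/- retinas. It was scarce in controls and at 8.14, 14.7, 10.4 and 9.93 CPM in Mfp2-/- replicates 1 to 4. Its fold change was the largest of the members tested (log2 fold change 3.35 ± 0.54, adjusted p = 0.00122). Igtp, an immunity-related GTPase gene, was at 3.28, 3.62, 2.90 and 1.74 CPM in controls and 8.14, 8.13, 14.5 and 11.8 CPM in Mfp2-/- retinas. The groups were separate, with a 3.71-fold increase (log2 fold change 1.89 ± 0.32, adjusted p = 0.00171).

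Gbp7, which lies 70452 bases from Gbp2, split the Mfp2-/- libraries. It had 39, 31, 23 and 33 counts in controls and 88, 13, 17 and 77 in Mfp2-/- retinas. Mfp2-/- replicates 1 and 4 were above the controls and replicates 2 and 3, those with the lower share of reads outside genes, were below them. The log2 fold change was 0.64 ± 0.51 (adjusted p = 0.382), and 1.34 (adjusted p = 0.00113) without replicates 2 and 3. The part of that library difference in the result was not tested. Iigp1, another immunity-related GTPase gene, showed a similar but not identical order at low counts, with 4, 5, 2 and 4 counts in controls and 22, 2, 5 and 8 in Mfp2-/- retinas. Irgm1 had 4 counts in controls and 37 in Mfp2-/- retinas, with no overlap between the groups. Gbp3 had 29 and 50 counts and Gbp5 18 and 44 counts, each with overlap.

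Of the 6 genes of ISG15, ubiquitin and ADP-ribosylation, 5 were tested and 4 were upregulated. Isg15, the ubiquitin-like modifier (chromosome 4, 156199424 to 156200818), had 5, 3, 3 and 6 counts in controls and 29, 33, 22 and 17 in Mfp2-/- retinas. Every Mfp2-/- library was well above the controls, a 6.24-fold increase (log2 fold change 2.64 ± 0.42, adjusted p = 0.0011). Rnf213, a large ubiquitin ligase gene, was at 2.55, 4.52, 2.26 and 7.32 CPM in controls and 19.8, 17.8, 11.4 and 20.6 CPM in Mfp2-/- retinas. The highest control remained below the lowest Mfp2-/- library (log2 fold change 2.06 ± 0.36, adjusted p = 0.00209).

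Dtx3l and Parp9 encode a ubiquitin ligase and an ADP-ribosyltransferase that form a complex, and they sit head to head on chromosome 16. Dtx3l was at 1.46, 2.26, 5.48 and 3.14 CPM in controls and 12.4, 12.7, 13.8 and 12.1 CPM in Mfp2-/- retinas. The Mfp2-/- libraries were almost level, and the increase was 4.00-fold (log2 fold change 2.00 ± 0.34, adjusted p = 0.00163). Parp9 was at 4.73, 4.98, 8.71 and 6.27 CPM in controls and 16.3, 12.7, 11.8 and 10.7 CPM in Mfp2-/- retinas. Its groups were separate too, with a 2.05-fold increase (log2 fold change 1.04 ± 0.27, adjusted p = 0.0153). The gene models share 458 exon bases on opposite strands, and whether the counting used strand is not given in the sources used here.

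Parp14, another ADP-ribosyltransferase gene, had 7, 7, 24 and 40 counts in controls and 54, 24, 35 and 34 in Mfp2-/- retinas. Control replicate 4 was as high as the Mfp2-/- libraries, the gene did not pass (log2 fold change 0.99 ± 0.45, adjusted p = 0.122), and without that control its adjusted p was 0.021. Usp18, the protease that removes ISG15 and restrains the type I receptor, was too low for the test, with 2, 1, 3 and 3 counts in controls and 5, 13, 14 and 11 in Mfp2-/- retinas. Each Mfp2-/- library held more than any control.

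Among the 7 other induced genes, 3 of the 4 tested were upregulated. Lgals3bp, a secreted glycoprotein gene, was at 5.10, 2.71, 11.3 and 10.5 CPM in controls and 22.3, 38.1, 29.2 and 26.5 CPM in Mfp2-/- retinas, a 3.78-fold increase without overlap (log2 fold change 1.92 ± 0.35, adjusted p = 0.00244). Ifi27, a mitochondrial protein gene, was at 8.01, 5.88, 12.9 and 10.5 CPM in controls and 20.2, 29.5, 19.5 and 29.1 CPM in Mfp2-/- retinas. The lowest Mfp2-/- value again lay above the highest control (log2 fold change 1.37 ± 0.26, adjusted p = 0.00325). Rtp4, a receptor transporter gene, had 2, 5, 11 and 17 counts in controls and 23, 16, 20 and 23 in Mfp2-/- retinas. It passed narrowly (log2 fold change 1.30 ± 0.44, adjusted p = 0.0489), and the adjusted p ran from 0.0607 to 0.127 without control replicate 1, 2 or 3 or without any 1 of the 4 Mfp2-/- libraries.

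Xaf1, a gene linked to cell death, was at 2.55, 1.36, 3.87 and 6.27 CPM in controls and 7.79, 4.57, 5.38 and 4.78 CPM in Mfp2-/- retinas. The groups overlapped at control replicate 4 and the gene did not pass (log2 fold change 0.65 ± 0.41, adjusted p = 0.263). Cxcl10, the chemokine that attracts T cells in interferon responses, had 0, 0, 2 and 0 counts in controls and 11, 5, 9 and 3 in Mfp2-/- retinas. It was detected in 1 control and in all 4 Mfp2-/- libraries, with a ratio of 14.6 (95% exact interval 3.68 to 126, for counting error only). Ifi35 had 24 counts in controls and 49 in Mfp2-/- retinas with no overlap in CPM, and Ifi44 had 31 and 36 with overlap.

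**Figure D4:**
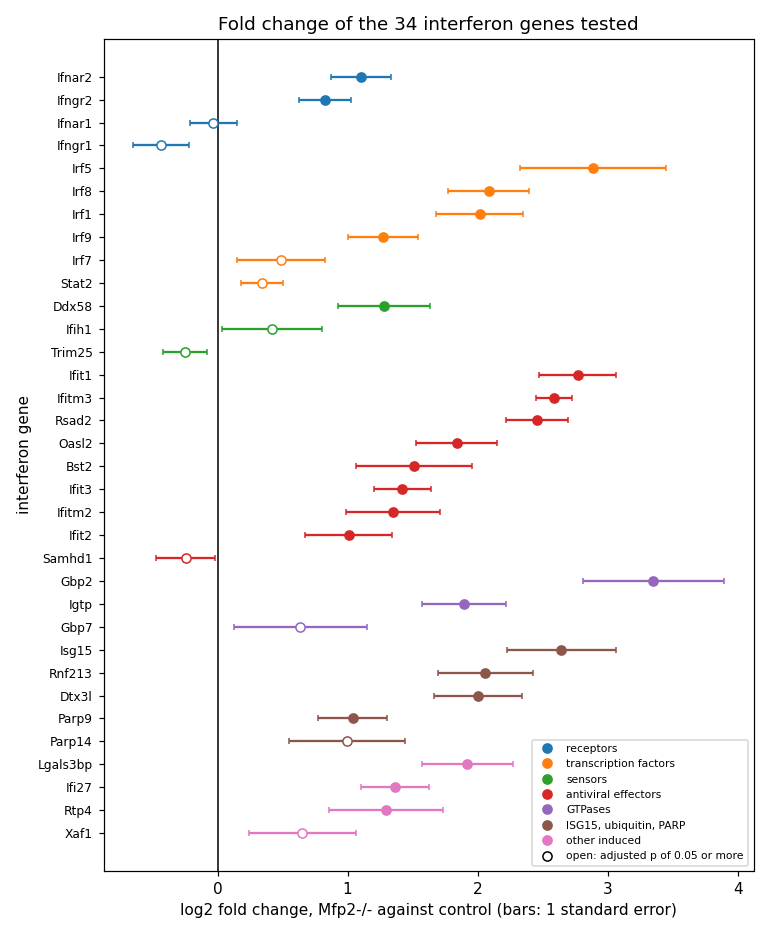
Log2 fold change (Mfp2-/- over control) of the 34 interferon genes tested (points, 4 mice per group) with 1 standard error on each side, coloured by role, with filled points for an adjusted p under 0.05 in edgeR's quasi-likelihood test and open points otherwise. The 24 filled points lie between 0.82 (Ifngr2) and 3.35 (Gbp2), and the open points reach down to -0.44 (Ifngr1).

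The libraries of a group did not all contribute alike. Over the 24 upregulated members, Mfp2-/- replicate 2 was the highest of its group in 13 and the lowest in 3, and replicate 4 was the lowest in 9. In the controls, replicate 4 was the highest in 11 and replicate 1 the lowest in 10. The Mfp2+/- control was the highest in 4 and the lowest in 9 of the 24. Summed over the 48 members, controls 1 to 4 were at 305, 297, 367 and 357 CPM and Mfp2-/- replicates 1 to 4 at 769, 819, 686 and 741 CPM. The ratio of the means was 2.27.

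The wider pathway was described by 112 further genes, of which 38 were tested, 13 upregulated and 5 downregulated, with a median log2 fold change of 0.59. The share downregulated, 13.2% of those tested, was that of all genes tested (13.2%), so the downward count does not set these genes apart, and the share upregulated was 34.2% against 13.8%. As for the members, a gene scarce in controls could enter the test only by being higher in Mfp2-/- retinas. With 10 counts required in every library, 4 of 24 were upregulated, against 14.8% of all genes tested at that filter. All 21 interferon genes themselves, Ifnb1, Ifng and the Ifna and Ifnl genes included, had 0 counts in every library. At this depth their transcripts were not detected, with up to 3 counts per library allowed by a count of 0. That bound holds only for reads with a single place in the genome, since reads that match several places were not counted. Transcripts of near-identical Ifna genes could therefore be missed. Of the receptor chains of other interferon classes, Il10rb, shared by the receptors of interferon lambda and interleukin 10, was at 1.82, 3.17, 4.19 and 1.05 CPM in controls and 4.25, 7.11, 8.07 and 7.72 CPM in Mfp2-/- retinas. Its groups were barely apart (log2 fold change 1.39 ± 0.41, adjusted p = 0.029), and its adjusted p ran from 0.0567 to 0.0843 when leaving out control replicate 1, 2 or 4 or else replicate 3 or 4 of Mfp2-/- and was 0.103 without Mfp2-/- replicates 2 and 3. Ifnlr1, the interferon lambda chain, had 2 counts in controls and 8 in Mfp2-/- retinas, a ratio of 4.17 with a 95% exact interval of 0.832 to 40.3.

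Among kinases and signal transducers, Stat3, which serves interleukin 6 family cytokines more than interferons, was at 80.8, 105, 92.6 and 125 CPM in controls and 282, 259, 282 and 262 CPM in Mfp2-/- retinas. The lowest Mfp2-/- library was far above the highest control (log2 fold change 1.43 ± 0.15, adjusted p = 5.92e-05). Jak1, the kinase shared by type I and gamma receptors, was at 198 to 210 CPM in controls and 177 to 208 CPM in Mfp2-/- retinas. Its groups overlapped (log2 fold change -0.07 ± 0.12, adjusted p = 0.664).

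Of 7 genes listed as negative regulators, 6 were tested, 2 were upregulated and 1 was downregulated. Ptpn2, Irf2 and Isg20l2 did not pass, while Socs1 was too low for the test. Isg20l2 was placed among them in the list drawn up here, without evidence for that role. Socs3, an inhibitor of Janus kinases that is induced by STAT proteins, was at 2.91, 5.43, 5.16 and 5.57 CPM in controls and 32.9, 52.8, 36.6 and 41.9 CPM in Mfp2-/- retinas. The groups were far apart, with an 8.51-fold increase (log2 fold change 3.09 ± 0.24, adjusted p = 5.7e-06). Ptpn6, encoding the phosphatase SHP-1 of blood-derived cells, had 5, 0, 1 and 0 counts in controls and 17, 11, 18 and 15 in Mfp2-/- retinas. It too was separate between the groups (log2 fold change 3.30 ± 0.64, adjusted p = 0.00352). Pias1, a SUMO ligase that inhibits STAT proteins, was at 56.4, 62.0, 68.1 and 74.5 CPM in controls and 40.3, 25.4, 39.0 and 27.6 CPM in Mfp2-/- retinas, below every control (log2 fold change -0.97 ± 0.18, adjusted p = 0.00257).

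Of 9 further tested genes that sense nucleic acids or induce interferon, edgeR called 0 upward and 3 downward. The shares over all genes tested were 13.8% and 13.2%. These 9 leave out Ddx58, Ifih1 and Trim25, described above as members, of which Ddx58 was upregulated. At an unadjusted p under 0.05, 1 was higher (Myd88), and DESeq2 and limma-voom called 0 upward. A further 8 genes of this role were too low for the test. Of these, Mb21d1, which encodes the DNA sensor cGAS, had 3 counts in controls and 17 in Mfp2-/- retinas without overlap between the groups, a ratio of 5.91 (95% exact interval 1.71 to 31.5). Tlr7, an endosomal RNA receptor gene, had 1 and 12 counts (ratio 12.5, interval 1.85 to 535), with overlap. Ifi204, a gene of the DNA-sensing p200 family, had 1 and 10 (ratio 10.4, interval 1.48 to 452), also with overlap. The intervals take in counting error alone and not variation between mice. Tmem173, encoding the adaptor STING, had 11 and 37 counts and Ticam1, an adaptor gene of Toll-like receptors, 44 and 18, again with overlap. Tlr4 had 1 and 6 counts, Ikbke 2 and 4, and Tlr9 was at 0 in every library. Irf3, the factor that switches on Ifnb1, was at 44.0, 58.4, 42.9 and 45.6 CPM in controls and 32.6, 21.3, 19.2 and 22.4 CPM in Mfp2-/- retinas. Every Mfp2-/- library was below every control (log2 fold change -0.99 ± 0.19, adjusted p = 0.00342). Azi2, an adaptor of the kinase TBK1, was at 90.6 to 104 CPM in controls and 34.6 to 47.8 CPM in Mfp2-/- retinas (log2 fold change -1.26 ± 0.13, adjusted p = 5.93e-05). Mavs, the mitochondrial adaptor of RIG-I and MDA5, was at 14.8 to 18.5 CPM in controls and 8.09 to 12.7 CPM in Mfp2-/- retinas. Its log2 fold change was -0.75 ± 0.21 (adjusted p = 0.0227), with an adjusted p of 0.057 by upper-quartile scaling and of 0.0586 with a replicate block, and of 0.0596 to 0.0752 without control replicate 4 or Mfp2-/- replicate 1, 3 or 4.

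Among the further induced genes, 8 of 17 tested were upregulated and 1 downregulated. Lgals9, encoding galectin 9, was at 2.71 to 3.64 CPM in controls and 9.93 to 17.8 CPM in Mfp2-/- retinas (log2 fold change 2.07 ± 0.27, adjusted p = 0.000271). Ifi30, a lysosomal thiol reductase gene of antigen presentation, had 27, 11, 13 and 32 counts in controls and 65, 50, 86 and 79 in Mfp2-/- retinas (log2 fold change 1.81 ± 0.29, adjusted p = 0.00107). Tdrd7, a tudor domain gene, went the other way, at 80.4 to 169 CPM in controls and 13.2 to 43.7 CPM in Mfp2-/- retinas (log2 fold change -2.41 ± 0.34, adjusted p = 0.000485).

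Markers of cell types were measured beside the interferon genes. Summed markers of microglia and macrophages were at 100.1 to 117.7 CPM in controls and 526.6 to 665.7 CPM in Mfp2-/- retinas. All 22 had counts in both groups, and all 14 tested were upregulated, with a median log2 fold change of 2.72. Over all genes tested, 13.8% were upregulated. A marker scarce in controls could enter the test only by being higher in Mfp2-/- retinas, so these calls are not independent of the filter. As for the interferon genes, Mfp2-/- replicate 2 had the highest sum, but the order of the other libraries differed. Replicate 3, the lowest for the interferon genes (686 CPM), was above replicates 1 and 4 here (586 against 533 and 527 CPM). Of 17 markers of other leukocytes, 8 had counts in controls and 10 in Mfp2-/- retinas, Cd79a and Nkg7 in Mfp2-/- retinas only. Cd3e, Cd3g, Trac, Ms4a1, Ncr1, Klrb1c and Ly6g had 0 counts in all libraries. The list summed to 2.79 to 5.46 CPM in controls and 3.70 to 10.3 CPM in Mfp2-/- retinas, with overlap.

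Müller glia markers were at 4358 to 4910 CPM in controls and 6379 to 7597 CPM in Mfp2-/- retinas, with 8 of 12 upregulated. Astrocyte markers were at 47.5 to 68.4 CPM and 155 to 233 CPM, with 2 of 3 tested upregulated. Endothelial and pericyte markers were at 430 to 457 CPM and 592 to 607 CPM, with 1 of 10 tested upregulated, and those of the retinal pigment epithelium overlapped at 197 to 404 CPM and 300 to 527 CPM. All 16 rod markers were downregulated. Of all genes tested, 13.8% were upregulated and 13.2% downregulated. The part of these cell types in the values of the interferon genes was not tested.

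**Figure D5:**
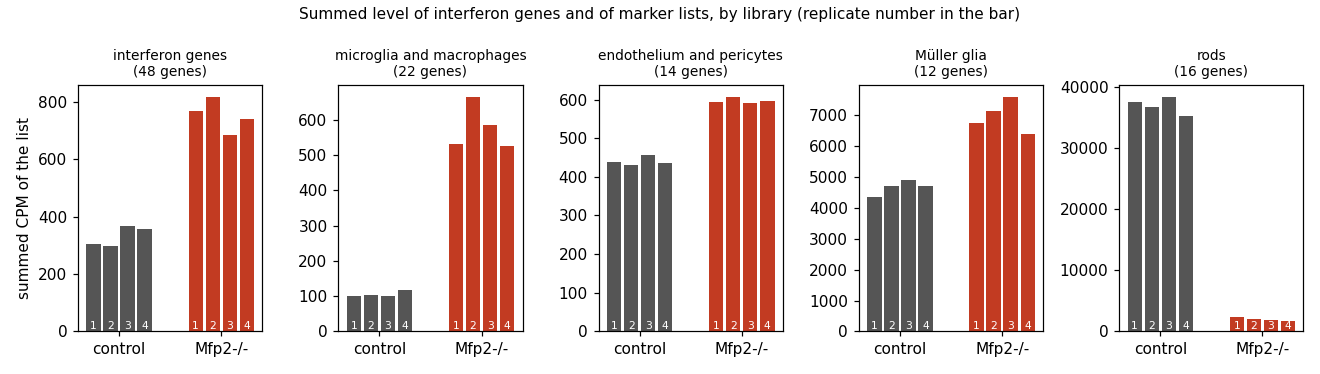
Summed CPM of the 48 interferon genes and of marker lists for 4 cell types in each library (bars, numbered by replicate, 4 mice per group), each panel on its own scale from 0. Interferon genes stand at 297 to 367 CPM in controls and 686 to 819 CPM in Mfp2-/- retinas, microglia and macrophage markers at 100.1 to 117.7 and 526.6 to 665.7 CPM, and rod markers fall to 1696 to 2275 CPM.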

How the data were processed

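The values deposited by the authors are raw counts of 3′ end reads per gene symbol in the neural retinas of 8 mice. They list FastQC 0.11.7, HISAT2, SAMtools 1.5, HTSeq 2.7.14 and the genome mm10, and the use of strand is not given in the sources used here. HTSeq leaves out reads that match several places, so that counts of near-identical members of the Ifit, Ifitm, Gbp and Ifna families are uncertain. Lines for reads in no feature were left out of library sizes.

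Counts were analysed here in R 4.3.3 with edgeR 4.0.16, using filterByExpr, TMM factors and the quasi-likelihood test of Mfp2-/- against control over 12516 genes, with Benjamini-Hochberg adjustment over all of them. The filter asked for 3.544 CPM (10 counts at the median library size) in at least 4 libraries. CPM of a library were scaled with its TMM factor. The study's own fit used limma, and limma-voom (limma 3.58.1) and DESeq2 1.42.0 were alternatives, with other scalings, filters and left-out libraries. The scripts were tested on simulated counts. Intervals cover counting error only, since they were computed from counts summed over the mice of a group and leave out variation between mice. Reads were not collapsed by molecule, so the intervals may be too narrow even for counting error. Positions are from the GENCODE annotation of GRCm38 and promoters from RefSeq GRCm38.p6.

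The interferon genes and the other lists were chosen by symbol and with earlier results of these data known. Values per library are given for every receptor and transcription factor and, in each other role, for up to 4 members with the smallest adjusted p. Members with 3 counts or fewer in a group are given by their counts, and of the further pathway genes up to 3 in a role are given. Per-library values of Ifit2, Samhd1, Ifitm1, Iigp1, Usp18 and Parp14, and the values of Myd88, Ptpn2, Irf2, Isg20l2, Socs1 and the untested sensing genes, were added after they were seen. A gene that the rule takes is not reported here. A series-wide count table was not used here.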

Additional observations from a re-analysis of the deposited data

Results flagged for a closer look

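Over 91 groups of 4 libraries that were checked for a library far from the others, 1 was found, whereas chance alone would give about 5% of them. Parp14 in Mfp2-/- replicate 1, at 19.1 CPM, was above the other Mfp2-/- libraries at 11.8 to 12.5 CPM, with a gap to the nearest that made up 0.9 of the range of the group.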

How the results depend on the processing

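When 10 counts were required in every library, 8 of 14 interferon genes tested were upregulated, and 4 of 24 genes of the wider pathway. Fewer genes were tested at that filter, and 14.8% of all 10223 genes tested there were upregulated. The median log2 fold change of 1.32 was 1.45 with upper-quartile factors, 1.44 with total counts alone and 0.93 with 10 counts in every library, and ran from 1.27 to 1.596 when 1 library was left out. Scaling by upper quartiles or total counts raised the median of all genes from -0.0039 to 0.12. The log2 fold change of Ifnar1, -0.03, was 0.0939 with upper-quartile factors, 0.0896 with total counts and -0.0908 to 0.1223 when 1 library was left out. The count of upregulated interferon genes ran from 21 to 25 with 1 library left out, 19 of the 24 being called each time, and all 24 were kept with RLE factors, upper-quartile factors, total counts, TMM factors without rod markers, no filter and DESeq2. The 0 downregulated calls were unchanged under every alternative run. With the replicate number as a replicate block, 22 of the 24 were called, Ifit2 (adjusted p = 0.0617) and Rtp4 (adjusted p = 0.0601) being lost, and of the further pathway genes named Mavs (adjusted p = 0.0586) was lost. Deviations from the group mean correlated at 0.08, -0.161, 0.251 and 0.211 between same-numbered libraries, and at -0.444 to 0.475 between differently numbered ones. With so few pairs these values cannot decide whether the numbers pair the mice, and the labels do not say. At the depth of these libraries, 14 members were too low for the test.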
